A study of Mus musculus with 18 samples.

Results

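Irx6, Osr2, Dmrta1 and Gata2 are 4 of the 30854 genes in the deposited gene table, and each was found there under its current symbol. They were chosen by their measured signals, as developmental transcription factors named for the tumour cells whose levels differ by host or by stage, so the host and stage values below describe that choice and carry no test. The arrays held RNA from GL261 tumours, a glioma line of C57BL/6 mice, grown in the brain of immune-deficient or immune-competent hosts. The deficient hosts were Pfp/Rag2 -/- mice on the C57BL/6 background. They have no perforin, with which killer lymphocytes open the membrane of a target cell, and no Rag2, which T and B cells need to assemble their receptors. The competent hosts were wild-type (WT) C57BL/6 mice. Tumours were taken at day 7 (2 arrays from Pfp/Rag2 -/- hosts, 2 from WT hosts), at day 14 (2 and 2) and when the mice had become symptomatic (3 and 3). Further arrays held cultured GL261 cells (2) and healthy mouse brain (2), which makes 18 arrays in 8 groups. Each tumour array held a pool from 2 or 3 mice, out of 4 mice of each host type at day 7 and at day 14 and 6 at the symptomatic stage, so the spread between arrays is a spread between pools. The labels of the healthy brain samples also carry the cell line's name, and no label gives the number of mice behind a brain array.

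All of these genes encode DNA-binding proteins that set cell identity in the embryo. Irx6 is an Iroquois homeodomain factor that lies in 1 gene cluster with Irx3 and Irx5 and acts in the mouse retina. Osr2 is an odd-skipped zinc finger factor required in mouse mesenchyme for growth of the secondary palate and for tooth patterning. Dmrta1 is a DM domain factor of the embryonic forebrain and lies beside the cell cycle inhibitor genes Cdkn2a and Cdkn2b. Gata2 is a GATA zinc finger factor required in blood stem and progenitor cells, and it is also active in mast cells, endothelium and some inhibitory neurons.

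Start-site regions were found for Dmrta1 and Gata2 in the RefSeq promoter table (build GRCm38.p6), and their 250 bases before each start are shown because both genes were brighter in Pfp/Rag2 -/- pools of day 14. Capitals mark GC boxes (GGGCGG on either strand), the sequence bound by Sp1-type factors.
Dmrta1, chr4:89687948-89688197, plus strand: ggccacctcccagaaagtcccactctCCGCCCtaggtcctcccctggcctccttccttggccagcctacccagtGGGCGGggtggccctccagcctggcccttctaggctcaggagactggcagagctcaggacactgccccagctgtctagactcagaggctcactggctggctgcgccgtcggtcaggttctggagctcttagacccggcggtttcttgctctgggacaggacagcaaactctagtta
Gata2, upstream start, chr6:88193641-88193890, plus strand: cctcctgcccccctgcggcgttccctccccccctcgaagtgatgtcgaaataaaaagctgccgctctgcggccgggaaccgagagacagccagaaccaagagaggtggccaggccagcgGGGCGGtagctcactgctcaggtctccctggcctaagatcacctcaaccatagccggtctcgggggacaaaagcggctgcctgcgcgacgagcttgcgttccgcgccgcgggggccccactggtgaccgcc
Gata2, downstream start, chr6:88198414-88198663, plus strand: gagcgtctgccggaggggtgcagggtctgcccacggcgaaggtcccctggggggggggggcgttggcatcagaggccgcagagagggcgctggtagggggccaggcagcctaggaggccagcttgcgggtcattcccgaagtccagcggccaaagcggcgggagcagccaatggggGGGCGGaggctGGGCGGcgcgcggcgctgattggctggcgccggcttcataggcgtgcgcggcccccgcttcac

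The Dmrta1 window holds GC boxes beginning 224 and 176 bases before the start, the upstream Gata2 window 1 at 131 bases, and the downstream Gata2 window a pair at 74 and 63 bases. A GC box stood in 32.7% of the 32851 mouse promoter windows of the same length. Both Gata2 windows are rich in CpG dinucleotides, with 22 in the upstream and 24 in the downstream one, against 7 in the Dmrta1 window. At least as many were held by 14.8%, 12% and 46.3% of all windows. None of the 3 windows held a GATA core (AGATAA or AGATAG on either strand, and TGATAA or TGATAG, in 26.5% of all windows), the Iroquois palindrome ACANNTGT (6.31%) or a TATA box (TATAAA on either strand, 12.4%). The Dmrta1 window held 1 E box (CANNTG, in 66.2% of windows), the Gata2 windows none. These letters describe the windows only, and the signals do not tell the Gata2 starts apart.

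Irx6, Dmrta1 and Gata2 were each linked to 1 array probe and Osr2 to 2. Values are background-corrected, quantile-normalized log2 signals, and a probe was counted as detected on an array where its signal exceeded the negative control probes with a detection p under 0.01. The median raw signal per array was 66.9 to 133, the median of the 936 negative controls 58.2 to 109, and 32.7% to 39.8% of probes were detected. Correlations between arrays of 1 group lay between 0.967 and 0.996. Where a probe was undetected on every array of a group, its difference is given as a lower bound ("at least"). The bound sets the brighter group's mean against the dim group's mean of, on each array, the higher of its own signal and the lowest signal among detected probes.

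Osr2, detected in all 14 tumour pools, was higher in Pfp/Rag2 -/- hosts than in WT hosts at all 3 stages. At day 7 its log2 signals were 11.65 and 11.72 in Pfp/Rag2 -/- pools, against 10.28 and 10.61 in WT pools. At day 14 they were 12.73 and 12.61 in Pfp/Rag2 -/- pools, against 10.43 and 10.83 in WT pools. In symptomatic mice they were 12.89, 13.04 and 12.71 in Pfp/Rag2 -/- pools, against 11.39, 11.89 and 11.63 in WT pools. The host groups did not overlap at any stage, and every Pfp/Rag2 -/- pool of day 14 or later was above every WT pool of any stage. The Pfp/Rag2 -/- minus WT difference was 1.24 (2.36-fold) at day 7, 2.04 (4.10-fold) at day 14 and 1.24 (2.37-fold) at the symptomatic stage. The second Osr2 probe gave 1.31, 2.22 and 1.22. Because the tissue is bulk, fewer cells of a type and less RNA per cell cannot be told apart.

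The Osr2 signal was higher at day 14 than at day 7 in Pfp/Rag2 -/- hosts, by 0.98, and lay 0.21 higher at the symptomatic stage than at day 14, where the pools overlapped. In WT hosts the larger step came later. The day 14 pools overlapped those of day 7, with a difference of 0.19, and the symptomatic pools were 1.00 above day 14. The symptomatic WT mean of 11.64 ± 0.25 (SD, n = 3) was near the day 7 mean of Pfp/Rag2 -/- tumours, 11.68 ± 0.04 (SD, n = 2).

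**Figure D1:**
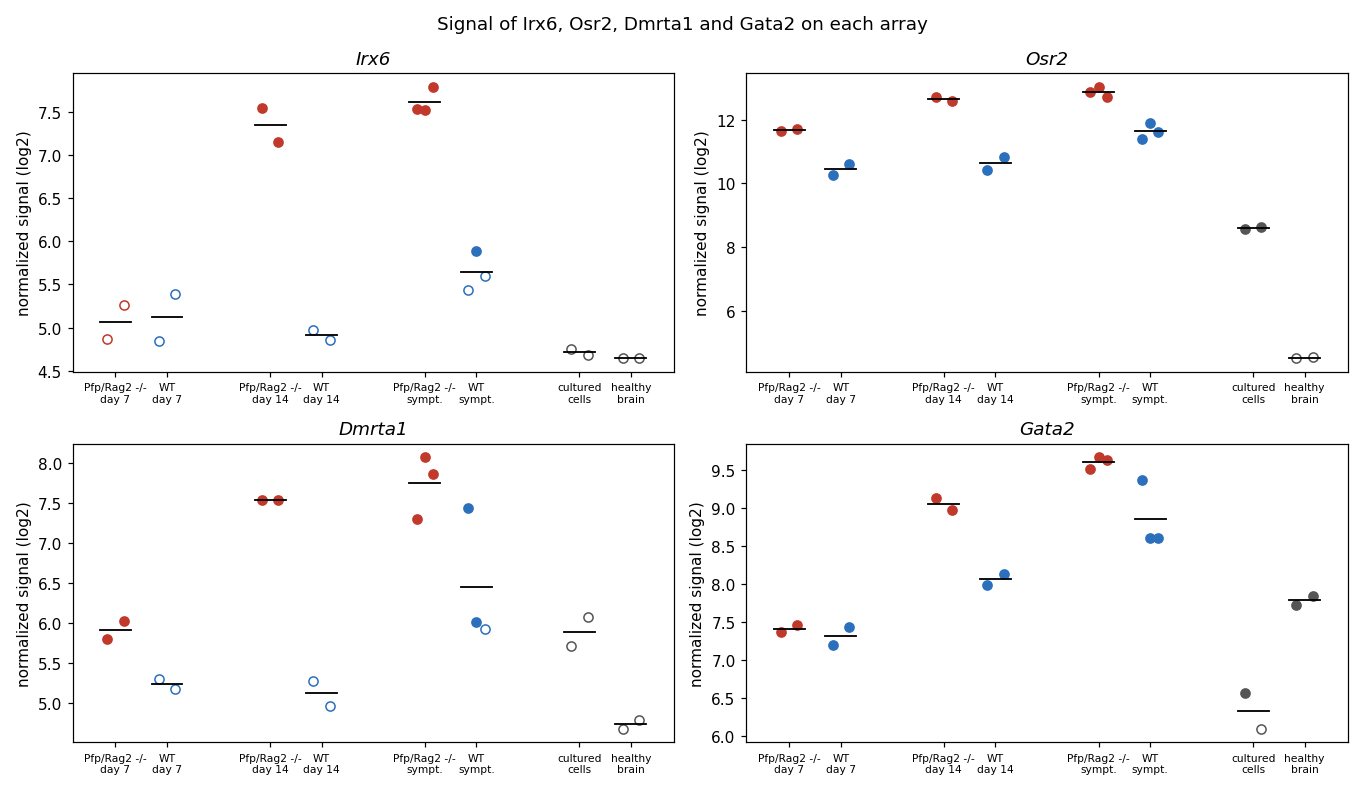
Log2 normalized signal (vertical axis) of Irx6, Osr2, Dmrta1 and Gata2 on each of the 18 arrays, by group (horizontal axis). Points are arrays, hollow where the probe was undetected, and bars are group means; Pfp/Rag2 -/- points are red and WT points blue, Osr2 separates the hosts at each stage, and Irx6 is detected in all Pfp/Rag2 -/- pools from day 14 on.

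Irx6 was detected on 6 of the 18 arrays: all 5 Pfp/Rag2 -/- pools of day 14 and the symptomatic stage, and 1 symptomatic WT pool. At day 14 its raw signals were 318 and 203 in Pfp/Rag2 -/- pools, against 118 and 102 in WT pools. On the log2 scale these were 7.54 and 7.15 in Pfp/Rag2 -/- pools, against 4.97 and 4.86 in WT pools, none of which was detected. The difference was at least 3.12-fold. In symptomatic mice the log2 signals were 7.53, 7.52 and 7.79 in Pfp/Rag2 -/- pools, against 5.43, 5.89 and 5.59 in WT pools, a difference of 1.98 without overlap. With 1 of the 3 WT pools detected, no fold is given for it. At day 7 neither host type was above background, with 4.87 and 5.26 in Pfp/Rag2 -/- pools and 4.84 and 5.39 in WT pools, so no fold is given.

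In Pfp/Rag2 -/- hosts Irx6 was at least 3.22-fold higher at day 14 than at day 7, and the symptomatic pools overlapped day 14. In WT hosts the symptomatic pools lay above those of day 14, yet 2 of the 3 were undetected and the bound on the fold was below 1. The size of the Irx6 differences depends on the correction for background. Without it the day 14 host difference was 1.26 and the symptomatic one 1.13.

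Dmrta1 was detected on 9 arrays, which were all 7 Pfp/Rag2 -/- pools and 2 symptomatic WT pools. At day 7 its log2 signals were 5.80 and 6.03 in Pfp/Rag2 -/- pools, against 5.30 and 5.17 in WT pools, at least 1.23-fold higher. At day 14 they were 7.54 and 7.54 in Pfp/Rag2 -/- pools, against 5.28 and 4.95 in WT pools, at least 3.57-fold higher. In symptomatic mice they were 7.30, 8.07 and 7.86 in Pfp/Rag2 -/- pools, against 7.43, 6.01 and 5.92 in WT pools. The groups overlapped here, because the first WT pool was brighter than the dimmest Pfp/Rag2 -/- pool. The symptomatic difference of 1.29 became 1.78 without that WT pool, and the day 14 difference of 2.42 was 1.30 without background correction.

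By stage, Dmrta1 was 1.63 higher at day 14 than at day 7 in Pfp/Rag2 -/- hosts (3.09-fold), and its symptomatic pools overlapped day 14. In WT hosts it was undetected at day 7 and at day 14, and at least 1.68-fold higher at the symptomatic stage. That WT stage difference, 1.34 on the log2 scale, was 0.85 without the first symptomatic WT pool.

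Gata2 was detected in all 14 tumour pools. At day 7 the hosts overlapped, with 7.37 and 7.46 in Pfp/Rag2 -/- pools and 7.21 and 7.44 in WT pools. At day 14 the log2 signals were 9.13 and 8.98 in Pfp/Rag2 -/- pools, against 7.99 and 8.13 in WT pools, a difference of 0.99 (1.99-fold). In symptomatic mice they were 9.52, 9.67 and 9.63 in Pfp/Rag2 -/- pools, against 9.37, 8.61 and 8.61 in WT pools, a difference of 0.74 (1.68-fold). The groups did not overlap at either of these stages. The first symptomatic WT pool, the same one as for Dmrta1, lay close to the Pfp/Rag2 -/- pools, and without it the difference was 1.00.

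Gata2 was higher at each successive stage in both host types, with no overlap between stages. In Pfp/Rag2 -/- hosts day 14 exceeded day 7 by 1.64 and the symptomatic stage exceeded day 14 by 0.55. In WT hosts these steps were 0.74 and 0.80, and the second was 0.55 without the first symptomatic WT pool.

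Set side by side, 2 of the 4 genes had Pfp/Rag2 -/- pools entirely above WT pools at day 7, 4 at day 14 and 3 at the symptomatic stage. Across all 13873 genes tested, 20.3%, 29.9% and 19.9% had such a separation in that direction. For day 14 against day 7 in Pfp/Rag2 -/- hosts, 4 of 4 were entirely higher (39% of all genes), and for the symptomatic stage against day 14 it was 1 of 4 (15.1%). In WT hosts it was 1 of 4 for day 14 against day 7 (31.2%) and 4 of 4 for the symptomatic stage against day 14 (27.4%). These counts follow from how the genes were chosen. Adjacent comparisons also share arrays, so the same day 14 pools enter the host and the stage differences.

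The first symptomatic WT pool did not rank alike for the detected genes. Among the 3 symptomatic WT pools, Dmrta1 and Gata2 were highest there (7.43 and 9.37), while Osr2 was lowest there (11.39). Irx6 was also lowest there (5.43) but undetected, as in the third pool (5.59), so its order among these pools lies at background. Of these 3 the first pool also had the lowest summed macrophage and microglia markers, 300.1% of the healthy brain level against 460% and 463% in the others. Its T cell markers were lowest too, at 598% against 758% and 906%. Their part in the difference was not tested.

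The tests that the choice of genes did not use compare cultured GL261 cells with healthy brain. Of all genes tested, 76% were called in this comparison by limma at an adjusted p under 0.05, 42.2% higher and 33.9% lower in cells, so a call here is common. Osr2 had log2 signals of 8.58 and 8.63 in cultured cells, against 4.50 and 4.54 in brain, where it was undetected. It was at least 7.23-fold higher in cells (log2 difference 4.08, SE 0.18, adjusted p = 7.3e-10). The second Osr2 probe gave at least 4.57-fold, and with the deposited series matrix values, which keep background, the log2 difference was 2.26. Gata2 had 6.57 and 6.10 in cultured cells, detected on 1 of 2 arrays, against 7.73 and 7.85 in brain, and was lower in cells by 1.45 (SE 0.23, adjusted p = 5.2e-05). Both differences held their direction and their call in every alternative tried.

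Dmrta1 had 5.71 and 6.07 in cultured cells and 4.68 and 4.79 in brain, undetected on all 4 arrays. Its log2 difference of 1.15 (SE 0.39, adjusted p = 0.017) therefore carries no fold, and the call ended without the second cell array (adjusted p = 0.097) or the first brain array (adjusted p = 0.069). Irx6 had 4.76 and 4.68 in cultured cells and 4.65 and 4.65 in brain, undetected on all 4 (difference 0.07, SE 0.21, adjusted p = 0.77 by limma). Irx6 and Dmrta1 passed the detection filter through tumour pools alone. Their tests here set background against background, so they cannot decide whether cells and brain differ in these genes. Of the 4 genes named as factors of the tumour cells, only Osr2 was thus detected on both arrays of cultured cells and higher there than in brain.

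Osr2 and Gata2 were higher in every tumour group than in cultured cells, and Irx6 and Dmrta1 in Pfp/Rag2 -/- tumours from day 14 on. Osr2 in tumours exceeded cultured cells by 3.08 in Pfp/Rag2 -/- hosts and 1.84 in WT hosts at day 7, by 4.06 and 2.03 at day 14, and by 4.28 and 3.03 at the symptomatic stage. Gata2 exceeded cultured cells by 2.72 in Pfp/Rag2 -/- hosts and 1.73 in WT hosts at day 14, and by 3.27 and 2.53 at the symptomatic stage. Against brain, Gata2 was 0.38 and 0.47 lower at day 7 in Pfp/Rag2 -/- and WT hosts, and 1.82 and 1.07 higher at the symptomatic stage. Irx6 in Pfp/Rag2 -/- tumours was at least 2.15-fold above cultured cells at day 14 and at least 2.60-fold at the symptomatic stage. For Dmrta1 these were at least 2.47-fold and at least 2.84-fold. By group mean, Osr2 ran from brain through cultured cells to WT and then Pfp/Rag2 -/- tumours, whereas Gata2 was lowest in cultured cells, with brain above both host types at day 7.

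The share of signal that follows the cultured line was described with an index over 200 genes bright in cultured cells and dim in brain, set to 100% in cells and found at 1.66% in brain. It was 40.2% and 60.3% in Pfp/Rag2 -/- pools of day 7, against 59.8% and 56.8% in WT pools. At day 14 it was 73.5% and 87% in Pfp/Rag2 -/- pools, against 58% and 75.6% in WT pools. In symptomatic mice it was 75.3%, 76.4% and 79% in Pfp/Rag2 -/- pools, against 80.8%, 77.6% and 76.9% in WT pools. At the symptomatic stage this index overlapped between hosts. With the 50 brightest such genes in place of 200 it did not, at 76.5% to 79.1% in Pfp/Rag2 -/- pools and 69.5% to 75.9% in WT pools. Over the 14 tumour pools, Pearson's r with the log2 index was 0.58 for Irx6, 0.47 for Osr2, 0.56 for Dmrta1 and 0.77 for Gata2. Between day 7 and day 14 in Pfp/Rag2 -/- hosts, index and all 4 genes were higher together. The part of the index in the levels of the 4 genes was not tested.

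**Figure D2:**
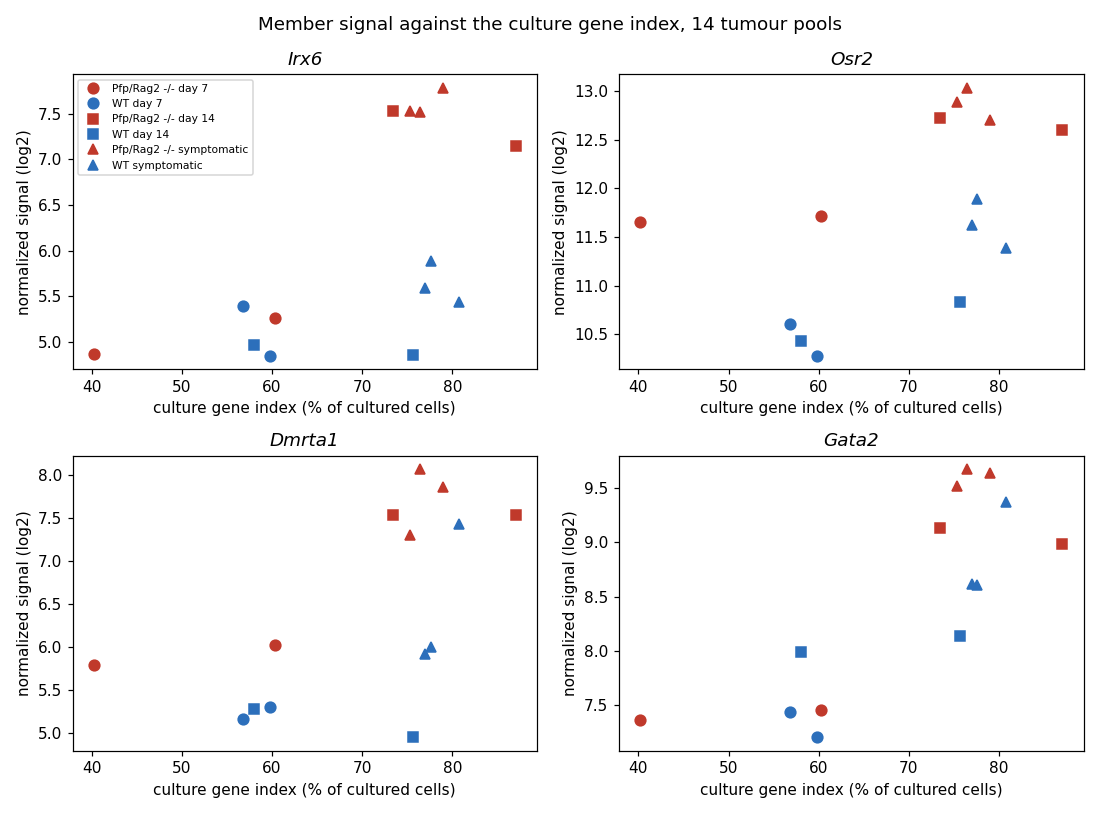
Log2 normalized signal (vertical axis) of each gene against the index of 200 culture-bright genes in percent of cultured cells (horizontal axis), for the 14 tumour pools. Red points are Pfp/Rag2 -/- and blue points WT pools, with shapes for stage; symptomatic pools of both hosts lie between 75.3% and 80.8% on this index, which overlaps between hosts with 200 genes and not with 50, and Irx6 and Osr2 are higher in the Pfp/Rag2 -/- ones.

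Summed markers of other cell types were set beside these genes, in percent of the healthy brain level. Summed over 12 macrophage and microglia markers, the signal was 159% to 178% of the brain level in Pfp/Rag2 -/- pools and 531% to 650% in WT pools at day 14. At the symptomatic stage it was 110.3% to 127% in Pfp/Rag2 -/- pools and 300.1% to 463% in WT pools. The 7 tested T cell markers summed to 285% to 304% in Pfp/Rag2 -/- pools and 1312% to 1537% in WT pools at day 14. On this list cultured cells also stood above brain, with 1 marker, Lck, detected. In percent of cultured cells, the day 14 sums were 112.3% to 119.9% in Pfp/Rag2 -/- pools and 517.3% to 605.8% in WT pools. Of the 7 markers, 1 or 2 were detected in these Pfp/Rag2 -/- pools and 6 in the WT pools. Neuron markers (5) were at 3.1% to 17.4% of brain in Pfp/Rag2 -/- pools and 7.3% to 25.5% in WT pools at day 14, which overlapped. By limma 0 of these 5 passed the host test at that stage. Choroid plexus markers (8) were at 65.5% to 110% of brain in Pfp/Rag2 -/- pools and 15.8% to 29% in WT pools at day 7, and 2.2% to 3.4% against 12.8% to 35% at day 14. Oligodendrocyte markers (6) were at 15.2% to 21.1% of brain in Pfp/Rag2 -/- pools and 22.9% to 50.9% in WT pools at day 14. By limma 0 of the 6 rose and 3 fell in Pfp/Rag2 -/- hosts there (13.4% of all genes called). At the symptomatic stage these markers were at 23% to 23.7% against 12.5% to 16.3%, where 3 rose and 0 fell (16.9% of all genes called). Fibroblast and meninges markers (8), like Osr2, summed higher in Pfp/Rag2 -/- pools at each stage without overlap. They were at 106% to 114% of brain in Pfp/Rag2 -/- pools against 82.8% to 89% in WT pools at day 7, at 107% to 121% against 81.3% to 90.1% at day 14, and at 119% to 135% against 89.6% to 106% at the symptomatic stage. Of these 8 markers 0, 1 and 1 passed limma's test as higher at the 3 stages. Cultured cells alone stood at 146% to 148% of brain on this list, above every tumour pool. Against brain, 4 of the 8 were called higher and 3 lower in cultured cells by limma, so the list is not particular to other cells. The part of the listed cell types in the levels of Irx6, Osr2, Dmrta1 and Gata2 was not tested.

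Gata2 is itself a factor of mast cells, megakaryocytes and endothelium. Of the mast cell markers, the protease genes Mcpt4 and Tpsb2 and the IgE receptor chain gene Ms4a2 were detected on 0 of 14 tumour arrays, Cma1 on 1, Cpa3 on 2 and Fcer1a on 3. Kit and Hdc were detected on all 14 and also in brain and cultured cells. The summed 4 tested mast cell markers were at 284% to 329% of brain in Pfp/Rag2 -/- pools and 223% to 259% in WT pools at day 14, and at 325% to 357% against 347% to 401% at the symptomatic stage. Singly, 1 of the 4 rose and 2 fell in Pfp/Rag2 -/- hosts at day 14 (median log2 difference -1.05), and 0 rose and 2 fell at the symptomatic stage. Of the platelet genes, Gp9 and Ppbp were detected on 0 tumour arrays, Itga2b on 2 and Pf4 on 5. Of the red cell genes, Klf1 was detected on 1, Alas2 on 2 and Hba-a1 on 14. The 4 tested platelet and red cell markers summed to 13.2% to 21.2% of brain in Pfp/Rag2 -/- pools and 63.8% to 92.3% in WT pools at day 14, and to 41.8% to 68.5% against 67.3% to 246% at the symptomatic stage, with the first WT pool highest. The 10 endothelial and pericyte markers summed to 61.9% to 98.6% of brain in Pfp/Rag2 -/- pools and 80.1% to 88.7% in WT pools at the symptomatic stage, which overlapped. By limma 1 of the 10 rose and 2 fell in Pfp/Rag2 -/- hosts at that stage (16.9% of all genes called). At day 14 0 rose and 1 fell (13.4% of all genes called). Their part in the Gata2 levels was not tested.

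Of 6 further Iroquois-type homeobox genes listed, 4 were measured well enough to test, and Irx5, the immediate neighbour of Irx6 in the cluster, was the 1 of these that passed the host test by limma. At day 7 Irx5 was at 7.82 and 7.75 in Pfp/Rag2 -/- pools, against 7.01 and 6.94 in WT pools. At day 14 it was at 8.38 and 8.72 in Pfp/Rag2 -/- pools, against 6.82 and 7.64 in WT pools. In symptomatic mice it was at 8.66, 8.62 and 8.64 in Pfp/Rag2 -/- pools, against 8.06, 8.14 and 8.10 in WT pools. The differences were 0.81 at day 7 (SE 0.20, adjusted p = 0.041), 1.32 at day 14 (SE 0.20, adjusted p = 6.2e-04) and 0.54 at the symptomatic stage (SE 0.16, adjusted p = 0.035). The groups did not overlap at any stage. The percent of all genes called by host was 3.37% at day 7, 13.4% at day 14 and 16.9% at the symptomatic stage.

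The day 7 call of Irx5 ended without any one of the 4 arrays (adjusted p up to 0.26) and the symptomatic call without any one of the 6 (up to 0.09). The day 14 call held without any one array and ended with a fit to only its 2 groups (adjusted p = 0.21). Unlike Irx6, Irx5 was bright in cultured cells, at 8.49 and 8.51, against 5.17 and 5.12 in brain, where it was undetected (at least 6.74-fold, adjusted p = 8.2e-09). Irx2 had a similar pattern in culture, at 8.55 and 8.50 in cells against 5.62 and 5.47 in brain (at least 6.85-fold, adjusted p = 1.8e-07), but missed the host threshold at each stage (adjusted p = 0.090, 0.18 and 0.61). Irx3 lay in the opposite direction, at 4.81 and 4.72 in cells, undetected, against 7.24 and 7.25 in brain (at least 2.01-fold lower in cells, adjusted p = 1.8e-04), and also missed the host threshold (adjusted p = 0.095, 0.995 and 0.57).

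**Figure D3:**
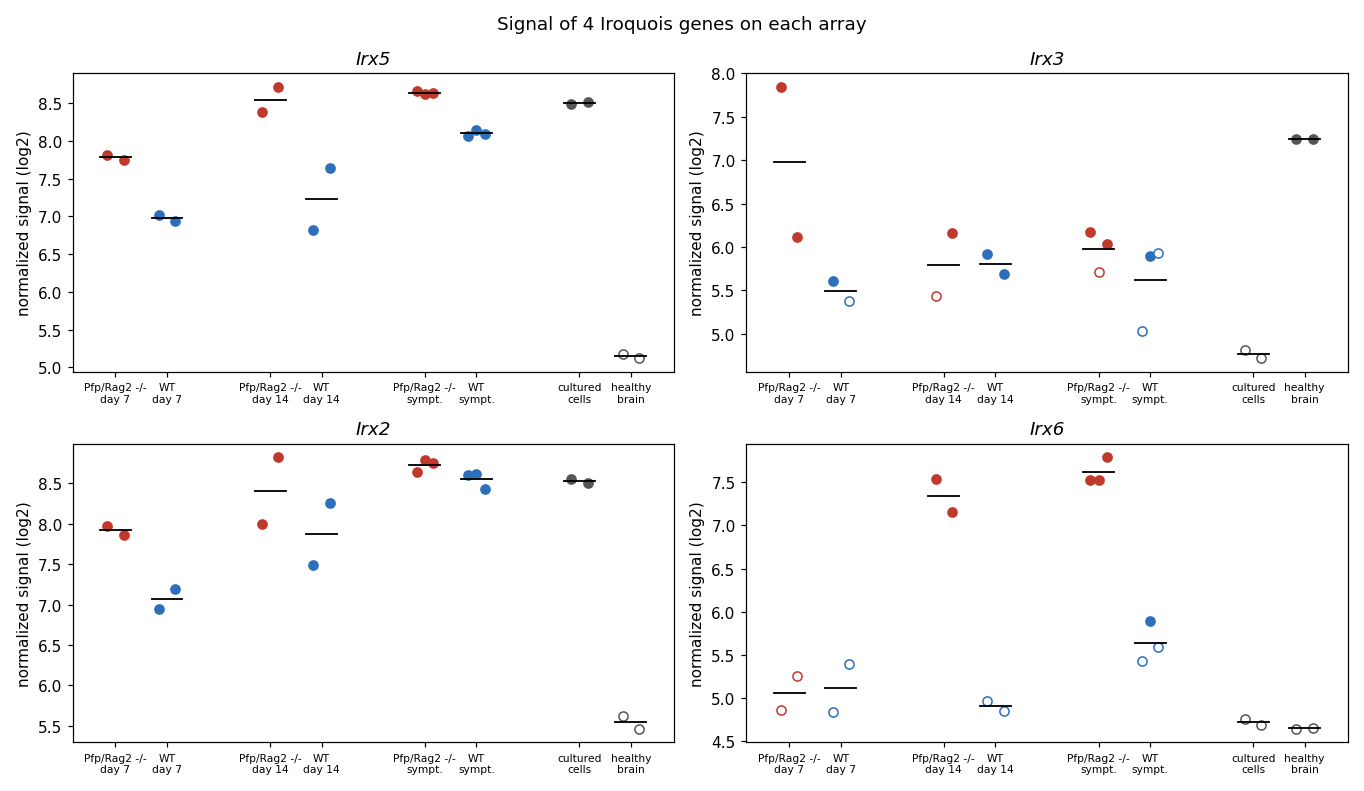
Log2 normalized signal (vertical axis) of Irx5, Irx3, Irx2 and Irx6 on each array, by group (horizontal axis); hollow points are undetected, bars are group means. Irx5 and Irx2 are bright in cultured cells, Irx3 in brain, and Irx6 in neither.

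On the other side of Irx6 in gene order, Mmp2, a matrix-degrading protease gene, was 6.21 higher in cultured cells than in brain (SE 0.23, adjusted p = 1.7e-10) and missed the host threshold at each stage. Lpcat2, a lysophospholipid acyltransferase gene, fell in Pfp/Rag2 -/- pools by 1.47 at day 14 (SE 0.27, adjusted p = 0.0028) and was at least 2.29-fold lower there at the symptomatic stage (adjusted p = 8.2e-04). Capns2, the third neighbour on that side, was undetected in both hosts at these stages. Irx5 and Lpcat2 thus lay on opposite sides of Irx6 and differed between hosts in opposite directions. In cultured cells Lpcat2 was 3.22 higher than in brain (SE 0.27, adjusted p = 1.9e-07). The neighbours were chosen after seeing the data. Of the neighbours of Osr2, 3 were tested and 0 passed the host test by limma at any stage, with 1 unadjusted p under 0.05 over the 3 stages.

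Among the odd-skipped and mesenchyme factors, 6 of 14 further genes were tested. At day 7, 1 of them, Msx1, passed limma's test as higher in Pfp/Rag2 -/- hosts (3.23, SE 0.61, adjusted p = 0.010). That call ended in 4 of 14 alternatives. On day 14 and in symptomatic mice 0 of the 6 passed limma's test as higher in Pfp/Rag2 -/- hosts. Twist1 was nearest at day 14 (0.62, unadjusted p = 0.031, adjusted p = 0.13). Osr1, the paralogue of Osr2, was at 9.79 and 9.71 in Pfp/Rag2 -/- pools of day 14, against 9.80 and 9.70 in WT pools. It was lower in cultured cells than in brain by 1.28 (SE 0.12, adjusted p = 5.1e-07), the opposite direction to Osr2. Twist1, a mesenchymal bHLH factor, was higher in cultured cells by at least 4.67-fold (adjusted p = 3.5e-07), and in the symptomatic pools it was at 8.19, 8.41 and 8.22 in Pfp/Rag2 -/- hosts and 8.22, 8.47 and 8.23 in WT hosts. Bmp4, a ligand that acts with Msx1 in palate and tooth mesenchyme, was undetected in Pfp/Rag2 -/- pools at day 14 (5.30 and 5.15), against 7.44 and 6.86 in WT pools, at least 2.44-fold lower (adjusted p = 4.2e-04).

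Around Dmrta1, the neighbours Mtap, Cdkn2a and Cdkn2b were all higher in cultured cells than in brain, Cdkn2a by at least 17.4-fold (adjusted p = 3.6e-09), and 0 of the 4 tested neighbours passed the host test by limma at any stage. The 1 unadjusted p under 0.05 among them was that of Cdkn2a at the symptomatic stage (0.0093 by limma), with a difference of -0.70. Of the 17 further DMRT and forebrain progenitor factors, 6 were tested. Dmrta2, the paralogue of Dmrta1, was detected in brain and in cells, at 8.48 and 8.33 in cultured cells against 7.37 and 7.44 in brain. At day 7 it was 1.09 higher in Pfp/Rag2 -/- pools without overlap, yet missed the threshold by limma (unadjusted p = 0.0034, adjusted p = 0.074). The day 14 difference was 0.16, with overlap. In symptomatic pools it was at 8.48, 8.36 and 8.51 in Pfp/Rag2 -/- hosts, against 8.51, 8.21 and 8.45 in WT hosts. Hes1, a Notch-responsive repressor that keeps neural progenitors undifferentiated, was higher in symptomatic Pfp/Rag2 -/- pools, at 8.08, 8.35 and 8.35 against 7.61, 7.19 and 7.19 in WT pools (difference 0.93, SE 0.18, adjusted p = 0.0032).

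Of 13 further GATA factors and partners listed, 9 were tested, and their host differences ran in both directions. At the symptomatic stage 2 rose in Pfp/Rag2 -/- pools and 2 fell. Zfpm2 (Fog2), a cofactor that binds GATA proteins, was at 10.15, 10.38 and 10.16 in Pfp/Rag2 -/- pools, against 9.77, 9.38 and 9.20 in WT pools (difference 0.78, SE 0.17, adjusted p = 0.0065). Like Gata2, Zfpm2 was lower in cultured cells than in brain, by 1.43 (SE 0.21, adjusted p = 2.7e-05). The gene under the name Tcf3, matched to its current symbol by that name alone, rose by 0.83 (SE 0.14, adjusted p = 0.0011 by limma).

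Lmo2, an adaptor that joins GATA and bHLH factors in blood cells and endothelium, was at 9.01, 8.82 and 8.89 in symptomatic Pfp/Rag2 -/- pools, against 9.55, 9.74 and 9.79 in WT pools, and fell by 0.79 (SE 0.15, adjusted p = 0.0026). It fell by 1.21 at day 14 (SE 0.18, adjusted p = 6.2e-04), and it was undetected in cultured cells. Runx1, a partner of Gata2 in blood progenitors, fell by 0.87 at the symptomatic stage (SE 0.19, adjusted p = 0.0055). Zfpm2, Tcf3, Lmo2 and Runx1 kept their symptomatic calls in all 16 alternatives run for each. The macrophage markers were lower in the same Pfp/Rag2 -/- pools, at 110.3% to 127% of brain against 300.1% to 463% in WT pools, and their part in the Lmo2 and Runx1 differences was not tested. Gata6, a GATA factor of endoderm and heart detected in culture, was at 9.47, 9.42 and 9.55 in symptomatic Pfp/Rag2 -/- pools and 9.78, 9.51 and 9.15 in WT pools, which overlapped. Of the neighbours of Gata2, 3 were tested, and by limma 0 passed the host test at day 7, 1 rose at day 14, and 1 rose and 1 fell at the symptomatic stage. H1f10, a linker histone gene on the far side of Rpn1 and Rab7, was highest in the first of the symptomatic WT pools, as Gata2 was, with 9.59, 9.62 and 9.70 in symptomatic Pfp/Rag2 -/- pools, against 9.45, 8.71 and 8.71 in WT pools (difference 0.68, adjusted p = 0.014), and 9.34 and 9.20 against 8.45 and 8.41 in WT pools at day 14 (0.84, adjusted p = 0.016). The day 14 call of H1f10 ended without any one of the 4 arrays, and in 5 of 13 alternatives in all (adjusted p up to 0.13). The symptomatic call ended without replicate 3 of the Pfp/Rag2 -/- pools or replicates 2 or 3 of the WT pools (up to 0.071). In all it ended in 5 of 15 alternatives (up to 0.085). Ruvbl1, an ATPase gene on the other side, fell by 0.50 in symptomatic Pfp/Rag2 -/- pools (SE 0.11, adjusted p = 0.0052), a call that ended with the mean of its probes (adjusted p = 0.11).

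**Figure D4:**
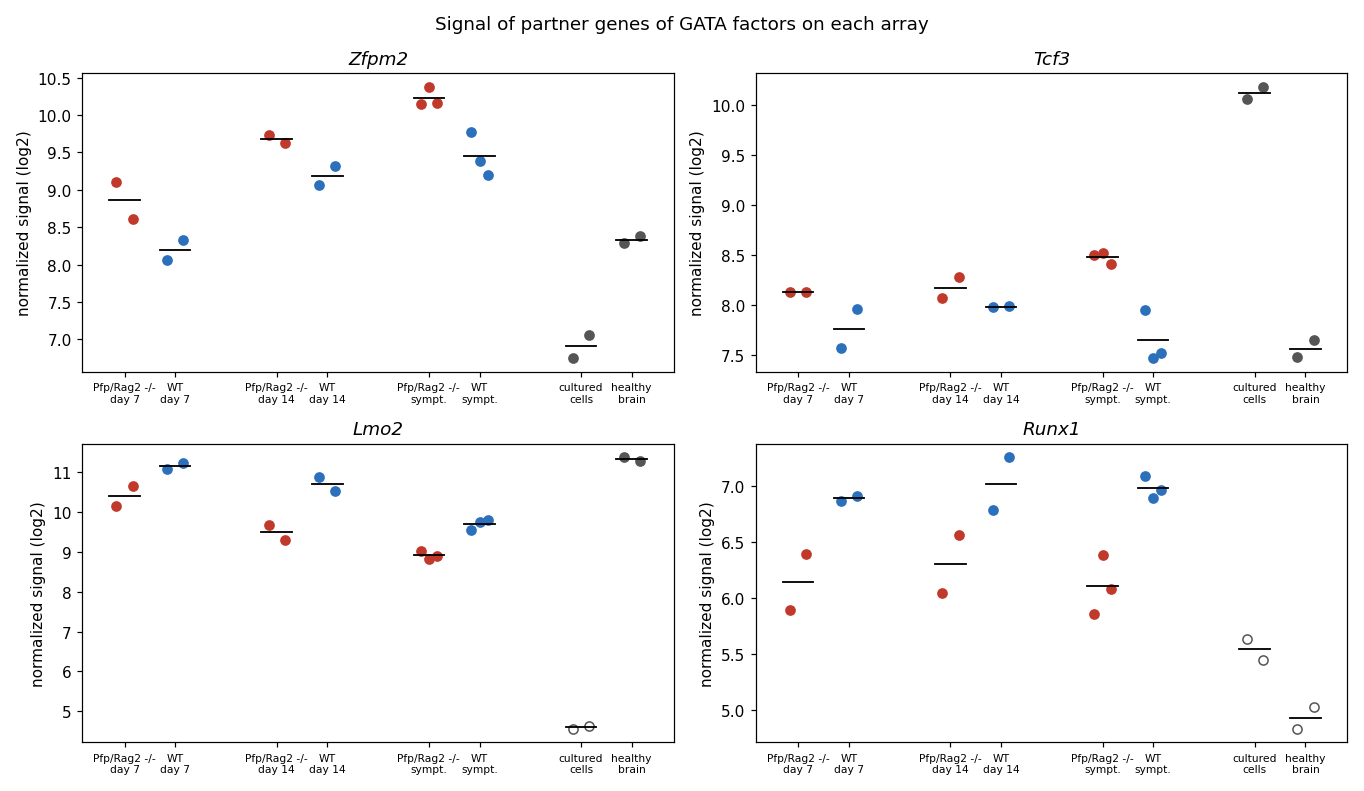
Log2 normalized signal (vertical axis) of Zfpm2, Tcf3, Lmo2 and Runx1 on each array, by group (horizontal axis); hollow points are undetected, bars are group means. At the symptomatic stage Zfpm2 and Tcf3 lie higher and Lmo2 and Runx1 lower in Pfp/Rag2 -/- than in WT pools.

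By list, the median host difference at the symptomatic stage was 0.26 for the 4 tested Iroquois genes, -0.00 for the 9 GATA factors and partners, -0.03 for the 6 mesenchyme factors and 0.32 for the 6 DMRT and forebrain factors, against 0.02 over all genes. At day 14 these medians were 0.26, -0.05, -0.19 and 0.25, against 0.06. At day 7 they were 0.83, 0.13, 0.63 and 0.12, against 0.02. By stage, in Pfp/Rag2 -/- hosts between day 7 and day 14 (35.2% of genes called), 4 of the 9 GATA factors and partners rose and 1, Lmo2, fell. These calls depended on single pools. Over all 25 listed factors the 12 calls became 4 without the first day 7 pool and 2 without the second day 14 pool. Gata3 lost its call without any one of the 4 pools (adjusted p up to 0.14), Zfpm2, Tal1 and Lmo2 without the second day 14 pool (0.074, 0.15 and 0.070), Zfpm2 also without the second day 7 pool (0.065) and Tal1 without the first (0.14). Gata6 rose by 1.21 (SE 0.28, adjusted p = 0.0084), and that call ended without the first day 7 pool (adjusted p = 0.092) or the second day 14 pool (adjusted p = 0.059). In WT hosts over the same interval (8.42%) 3 rose, Zfpm2 by 0.99 (SE 0.21, adjusted p = 0.014), Tal1 by at least 1.47-fold and Lyl1 by at least 1.57-fold (adjusted p = 0.043 and 0.041). Leaving out the first WT pool of day 7 ended the Zfpm2 call, as did leaving out the second of day 14. Without 1 array the Zfpm2 difference lay between 0.86 and 1.12. Lyl1 lost its call without any one of the 4 pools (adjusted p up to 0.24) and Tal1 without any but the first of day 14 (up to 0.27), and the 3 calls among the listed factors became 0 to 7 without 1 array. Between day 14 and the symptomatic stage 0 of the 25 listed factors passed in Pfp/Rag2 -/- hosts by limma (0.036% of all genes), 3 having an unadjusted p under 0.05, and in WT hosts (19.2%) Irx5 rose by 0.87 (adjusted p = 0.0087), which ended without the first WT pool of day 14 (adjusted p = 0.10), while Lmo2 fell by 1.00 (SE 0.17, adjusted p = 0.0034; 0.058 without the first WT pool of day 14) and Bmp4 was at least 2.36-fold lower (adjusted p = 0.0041; 0.071 without the first WT pool of day 14). The host difference itself changed between day 7 and day 14 for 2.41% of all genes, Msx1 and Bmp4 among the listed factors, and between day 14 and the symptomatic stage for 0% by limma (2215 genes at an unadjusted p under 0.05).

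The genes most like each factor over the 14 tumour pools were listed by Pearson's r, 5 for each. Nearest to Irx6 were AA388235 (r = 0.969), Atxn3, a RIKEN cDNA gene, Slc6a15 and Nhsl1 (0.958). Nearest to Osr2 were LOC624610 (0.970), Ncald, F8a, 4930563B10RIK and 1190005N23RIK (0.956). Nearest to Dmrta1 were Spry3 (0.977), Slc2a8, Spin2c, Rtkn and Dyrk1b (0.951), and to Gata2 C130085D15RIK (0.989), Ppp1r14c, Maf1, Bptf and SAPS2 (0.978). No name stands in more than 1 of these lists. Among themselves the 4 factors had r between 0.779 (Osr2 and Gata2) and 0.900 (Irx6 and Osr2), and all these points share host, stage and pool. Over all 18 arrays 0, 0, 1 and 0 of the 5 names remained for Irx6, Osr2, Dmrta1 and Gata2, and by Spearman's rho 0, 4, 1 and 0, so only the Osr2 list was much the same by rank.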

How the data were processed

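Per the labels, RNA extracted with NucleoSpin columns and pooled from 2 or 3 mice was amplified and biotin-labelled with the MessageAmp kit and hybridised to MouseWG-6 v2.0 arrays. The deposited probe table holds raw intensity per array on a linear scale, with no background subtraction or scaling visible in the values. The deposited gene table gives each group's lowest, mean and highest intensity, and per the file headers it came from GenomeStudio 1.9.0 with no normalization; 32 of its columns (spreads, bead and array numbers) were not used. In the deposited series matrix (10466 probes), 99.6% to 99.96% of intensity values per array lay within 1% of the raw probe signal, with a ceiling of 20000. Further steps by the authors are not stated in those sources.

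The probe table names no genes, so a probe was linked to a gene where the mean of 1 to 3 probes gave the gene's values in all groups. This linked 29617 of 30854 genes, and 0 of the decoy genes tested. Signals were corrected and quantile-normalized with neqc (limma 3.58.1, offset 16), probes had to be detected on 2 or more arrays, and the brightest stood for its gene (13873 genes). limma's moderated test on 8 group means used Benjamini-Hochberg adjustment over all genes, with a threshold of 0.05. In simulated data for 8 comparisons, 66 or 67 of 13873 genes were given each size of log2 change. The test called 4.48% to 20.9% of changes of 0.5, 58.2% to 68.7% of changes of 1 and 90.9% to 97% of changes of 2. Small changes were thus mostly missed in the simulation. The real comparisons called 0.036% to 76% of all genes, so these rates may not hold in them. The 4 genes, the gene and marker lists and the tests were chosen with earlier results of these data known. Genes named beside the 4 were the listed factors, the 3 protein-coding neighbours on each side and the 5 most like by Pearson's r. Replicate numbers follow the titles, which number symptomatic Pfp/Rag2 -/- pools 2 and 3 the other way round from the descriptions. No label says how pools were made separate, and the number of arrays limits precision. For each gene the p-values rest on 1 spread shared by all 18 arrays, cultured cells and brain included. They thus do not measure the spread between tumour pools alone.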

Additional observations from a re-analysis of the deposited data

Results flagged for a closer look

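For 2 of the listed factors the host difference itself differed between day 7 and day 14, by limma's interaction test over all genes (2.41% of genes called). Msx1, a homeodomain factor of palate and tooth mesenchyme, was at 10.29 and 8.16 in Pfp/Rag2 -/- pools of day 7, against 5.88 and 6.09 in WT pools. At day 14 it was at 5.38 and 4.91 in Pfp/Rag2 -/- pools, undetected, against 5.66 and 7.01 in WT pools. The host difference at day 14 minus that at day 7 was -4.43 (SE 0.87, adjusted p = 0.026), and the call ended without the first Pfp/Rag2 -/- pool of day 7 (adjusted p = 0.057), either WT pool of day 7 (0.10 and 0.062) or the second Pfp/Rag2 -/- pool of day 14 (0.089). Bmp4 was at 7.81 and 7.56 in Pfp/Rag2 -/- pools of day 7, against 6.35 and 6.96 in WT pools, and at 5.30 and 5.15, undetected, in Pfp/Rag2 -/- pools of day 14, against 7.44 and 6.86 in WT pools. Its interaction was -2.97 (SE 0.39, adjusted p = 0.0045), which held without any one array and ended with a fit to only the groups compared (adjusted p = 0.20). Both genes were bright in healthy brain and undetected in cultured cells. The summed choroid plexus markers moved with them, at 65.5% to 110% of brain in Pfp/Rag2 -/- pools against 15.8% to 29% in WT pools at day 7, and 2.2% to 3.4% against 12.8% to 35% at day 14, and their part was not tested.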

How the results depend on the processing

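Of the 4 genes, host differences of day 14 and of symptomatic mice kept their sign in every alternative. Values of genes near background were smaller where background was kept or a larger offset added. With no background correction, offset 50 and series matrix values, Irx6 gave 1.26, 1.62 and 1.21 by host on day 14, 1.13, 1.45 and 0.95 in symptomatic mice, 1.19, 1.54 and 0.95 for day 14 minus day 7 in Pfp/Rag2 -/- hosts, and 0.32, 0.39 and 0.074 for symptomatic minus day 14 in WT hosts. Dmrta1 gave 1.30, 1.68 and 1.25 by host on day 14 and 0.65, 0.85 and 0.33 for symptomatic minus day 14 in WT hosts. With no background correction and series matrix values it gave 0.81 and 0.70 by host at the symptomatic stage and 0.96 and 0.65 for day 14 minus day 7 in Pfp/Rag2 -/- hosts. Gata2 gave 1.33, 1.37 (cyclic loess) and 0.99 for that last step. Dmrta1 was undetected in cultured cells and in brain. Its call by limma between them ended with cyclic loess (0.86, adjusted p = 0.054), offset 50 (0.62, 0.068) and series matrix values (0.28, 0.26). Series matrix values, which are not scaled between arrays, turned symptomatic minus day 14 in Pfp/Rag2 -/- hosts to -0.19 for Irx6, -0.19 for Osr2 and -0.23 for Dmrta1, and day 14 minus day 7 in WT hosts to -0.083 for Osr2, which was also -0.018 without the second WT pool of day 14. Other series matrix values were 0.78 (Osr2, day 14 minus day 7) and 0.12 (Gata2, symptomatic minus day 14) in Pfp/Rag2 -/- hosts, and in WT hosts 0.26 (Gata2, day 14 minus day 7), 0.73 and 0.31 (Osr2 and Gata2, symptomatic minus day 14). The second Osr2 probe, added after seeing the data, gave 2.22 by host at day 14. With 50 genes the index was 76.5% to 79.1% in symptomatic Pfp/Rag2 -/- pools, above the WT pools (mean 72.2%), and 0.81% in brain.

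Leaving out 1 array moved Irx6 between -0.33 and 0.22 by host at day 7 and between -0.48 and 0.067 for day 14 minus day 7 in WT hosts, Osr2 between 1.83 and 2.24 by host at day 14, between -0.018 and 0.39 and between 0.80 and 1.21 for the WT steps, Dmrta1 between 0.97 and 1.34 in cells against brain, between 1.03 and 1.78 by host at the symptomatic stage and between 0.85 and 1.60 for the later WT step, and Gata2 between 0.62 and 1.00 and between 0.55 and 0.93 for these last comparisons.

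Counts of genes called depended on the arrays fitted. By host the count was 467 at day 7 (281 with only the 14 tumour arrays, 67 with only the groups compared, 123 to 1228 without 1 array), 1865 at day 14 (182 with only the groups compared, 877 to 2326 without 1 array) and 2343 at the symptomatic stage (1552 to 2284). In Pfp/Rag2 -/- hosts 4890 for day 14 minus day 7 became 1 with only the groups compared (438 to 5442 without 1 array). The 5 for symptomatic minus day 14 became 1 without background correction, 2 with cyclic loess, 3 with detection on at least 4 arrays, 3 with the mean of all probes, 2396 with series matrix values, 0 with only the 14 tumour arrays or only the groups compared, and 0 to 3 without 1 array (1088 had an unadjusted p under 0.05 by limma). In WT hosts 1168 for day 14 minus day 7 became 518 and 0 (138 to 2726 without 1 array) and 2663 for symptomatic minus day 14 became 1614 and 1 (275 to 3781). The interaction of day 14 minus day 7 gave 334, and 197 with no filter, 169 with series matrix values, 39 and 0 with fewer arrays (15 to 1326 without 1 array). That of symptomatic minus day 14 gave 0 (2215 with an unadjusted p under 0.05), and 4 with cyclic loess, 6 with no filter, 10 with series matrix values and 0 to 426 without 1 array. Cells against brain gave 6539 of 10549 with series matrix values, which hold fewer probes.

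Same-numbered pools of the 2 host types did not deviate together throughout (correlations of deviations 0.057 on day 7, 0.71 on day 14, and -0.14, 0.079 and -0.24 in symptomatic mice), so the numbers were not taken as pairs. With the replicate block, 2 genes in place of 5 were called for symptomatic minus day 14 in Pfp/Rag2 -/- hosts, and no other count over all genes moved by over 1.5 times.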
